A study of Mus musculus with 2 samples.

Results

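The cluster of miR-183, miR-96 and miR-182 is represented here by 4 mature miRNAs, mmu-miR-183-5p, mmu-miR-183-3p, mmu-miR-96-5p and mmu-miR-182-5p, of the 1881 mouse miRNAs on the array. They were chosen by name, as the probes carrying those names in the scanner output of both arrays. Exosomes, small vesicles released into the culture medium, were isolated from supernatants of KPC cells and of MPDC cells. KPC cells are a murine pancreatic cancer line grown from tumour tissue of mice with the alleles KrasLSL-G12D/+ and Trp53LSL-R172H/+ and with Pdx1-Cre, in which a promoter active in the developing pancreas drives the recombinase. MPDC cells are a purchased murine pancreatic ductal epithelial line and served as the control. KPC cells were cultured in RPMI-1640 medium with 20% fetal bovine serum and MPDC cells in DMEM with 10%, so base medium, serum content and cell line cannot be told apart. Before supernatants were collected, the medium was changed for one with fetal bovine serum freed of exosomes by centrifugation. There was 1 Agilent miRNA array for KPC-exosomes and 1 for MPDC-exosomes, and no replicate, so values carry the scanner's error but no SD and no p-value. With so few arrays, the spread between exosome preparations is unknown.

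miRNAs are cut from hairpin transcripts, and a mature strand from either arm of the hairpin (5p or 3p) guides Argonaute proteins to mRNAs that pair with its seed, bases 2 to 8 from the 5′ end. miR-183, miR-96 and miR-182 are known as a polycistron, made from a shared primary transcript, and are best known from the sensory cells of the retina, inner ear and olfactory epithelium and as miRNAs that are abundant in many carcinomas. Foxo1 mRNA, which encodes the transcription factor at the centre of the study, is a known target of miR-96 and miR-182. These statements are background and were not measured here.

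In the RefSeq table of GRCm38.p6 the 3 hairpin genes lie on the minus strand of chromosome 6, Mir183 at chr6:30169668-30169737, Mir96 at chr6:30169446-30169551 and Mir182 at chr6:30165918-30165992. From Mir182 to Mir183 the cluster covers 3820 bases. Mir183 and Mir96 are separated by 116 bases, and Mir96 and Mir182 by 3453 bases. All 3 hairpins lie within the span of Mirc35hg, a long non-coding RNA gene at chr6:30158640-30174125 with the synonym linc_miR96. The mature sequences are shown because the 5p arms are alike in the part that selects targets, and capitals mark the seed.

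mmu-miR-183-5p: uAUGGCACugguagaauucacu

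mmu-miR-96-5p: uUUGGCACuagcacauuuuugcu

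mmu-miR-182-5p: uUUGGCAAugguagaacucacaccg

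mmu-miR-183-3p: gUGAAUUAccgaagggccauaa

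The 3 miRNAs of the 5p arm share bases 3 to 7 (UGGCA) of their seeds, but the seeds are not identical. miR-183-3p, from the opposite arm of the miR-183 hairpin, has an unlike seed. Of the 1881 miRNA names on the array, 1608 were found in the RefSeq table, and 0 of them outside the cluster had the seed of a member.

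The hairpins, again from RefSeq, show where the measured strands come from. Capitals mark the mature arms, the 5p arm first.

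Mir183: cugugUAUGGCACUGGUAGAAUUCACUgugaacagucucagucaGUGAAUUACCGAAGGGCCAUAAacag

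Mir96: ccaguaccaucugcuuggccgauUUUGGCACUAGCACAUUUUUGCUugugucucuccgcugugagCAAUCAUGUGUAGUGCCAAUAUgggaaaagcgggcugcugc

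Mir182: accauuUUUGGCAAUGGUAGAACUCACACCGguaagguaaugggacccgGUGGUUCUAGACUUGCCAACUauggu

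Each miRNA was read by probes of stepped length that pair with its 3′ end. The cluster had 10 probes on 120 spots per array. The probe sequences, as the scanner files give them, are shown for the longest probe of each miRNA, because the part of the miRNA that a probe reads sets what it can tell apart.

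miR-183-5p probe: agtgaattctaccagtgcc

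miR-96-5p probe: agcaaaaatgtgctagtgccaa

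miR-182-5p probe: cggtgtgagttctacc

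miR-183-3p probe: ttatggcccttcggt

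The miR-96-5p probe pairs with bases 2 to 23 and so covers the seed, whereas the miR-183-5p probe pairs with bases 4 to 22, the miR-182-5p probe with bases 10 to 25 and the miR-183-3p probe with bases 8 to 22. The probes of miR-183-5p and miR-182-5p share a run of 7 bases, those of miR-183-5p and miR-96-5p a run of 6, and those of miR-96-5p and miR-182-5p a run of 4. Across the array, the longest run shared with a probe of any other miRNA was 9 bases for miR-183-5p (with miR-470-5p) and for miR-183-3p (with miR-7042-5p), and 8 for miR-96-5p and miR-182-5p. miR-470-5p was not detected in KPC-exosomes and had a signal of 30.0 in MPDC-exosomes. miR-7042-5p was detected on both arrays, with a signal of 1253 (KPC) and 11782 (MPDC). Binding of other miRNAs to these probes was not tested.

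Every member was detected in both kinds of exosomes and was dimmer in KPC-exosomes. A probe counted as detected when its total signal exceeded 3 times its scanner error, and the signal of a miRNA is the sum over its detected probes, in arbitrary units before any normalization between the arrays. KPC-exosomes gave miR-96-5p a signal of 276 ± 20.5 (scanner error), against 12697 ± 930 in MPDC-exosomes. For miR-183-5p the signal was 478 ± 40.5 in KPC-exosomes, against 5639 ± 472 in MPDC-exosomes. For miR-182-5p it was 298 ± 28.1 against 4313 ± 408. For all 3 miRNAs of the 5p arm the gap between the arrays was many times the scanner error. The 3p arm of miR-183 was also measured, with a signal of 21.8 ± 1.86 in KPC-exosomes and 279 ± 21.6 in MPDC-exosomes. Signals of different miRNAs are read by different probes, so which of them is more abundant is not read from these values.

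The single spots showed the same separation. Of the 10 probes, 8 were detected on both arrays, and the other 2, the shortest probes of miR-183-3p (12 and 13 bases), were detected in MPDC-exosomes only. For each of the 10 probes the brightest spot in KPC-exosomes was dimmer than the dimmest spot in MPDC-exosomes. The 22-base probe of miR-96-5p had processed spot signals from 557 to 692 (median 643) in KPC-exosomes and from 26870 to 30819 (median 29659) in MPDC-exosomes, on 14 spots per array. The 19-base probe of miR-183-5p ranged from 1256 to 1515 (median 1395) in KPC-exosomes and from 15516 to 17807 (median 16754) in MPDC-exosomes. The 16-base probe of miR-182-5p ranged from 916 to 1043 (median 982) against 14103 to 15434 (median 14916). The ranges of these probes were far apart on the arrays. On 7 spots per array, the 15-base probe of miR-183-3p ranged from 109 to 137 (median 129) in KPC-exosomes and from 1587 to 1640 (median 1621) in MPDC-exosomes. Among the 8 probes the spots of a probe on an array had a CV of 1.18% to 10.3%, and 0 spots of the cluster were saturated. Spots flagged as outliers (5 in KPC-exosomes and 3 in MPDC-exosomes) are left out of these spot values. Spots of a probe share the same labelled RNA, so their spread is that of the measurement and not of exosome preparations.

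**Figure D1:**
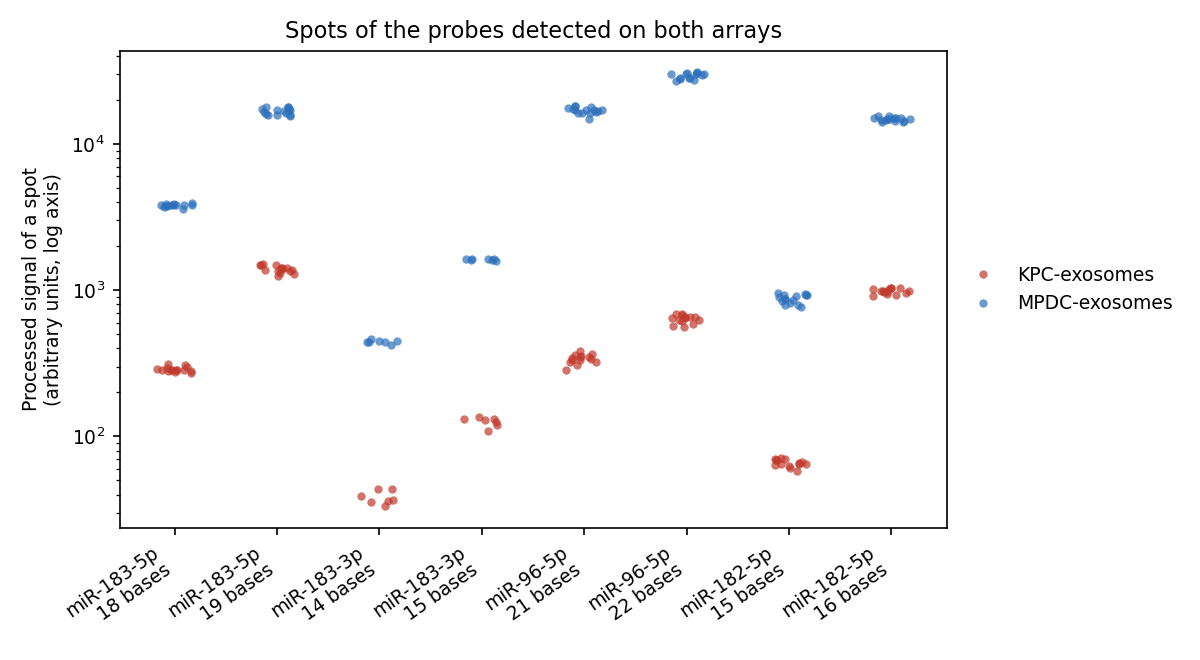
Processed signal of each spot (arbitrary units, log axis) for the 8 probes of the cluster detected on both arrays, named by miRNA and probe length. Points are spots, in red for KPC-exosomes and in blue for MPDC-exosomes. For each probe all red points lie below all blue points.

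Before normalization the log2 difference, KPC-exosomes minus MPDC-exosomes, was -5.52 ± 0.15 (scanner error) for miR-96-5p, -3.85 ± 0.19 for miR-182-5p, -3.68 ± 0.17 for miR-183-3p and -3.56 ± 0.17 for miR-183-5p. In signal this is 45.9-fold lower for miR-96-5p and 11.8-fold to 14.5-fold lower for the other 3. The arrays as a whole also differed: the median log2 difference of the 726 miRNAs detected on both arrays was -1.37, while the 4 spike-in controls differed by -0.31 to 0.38. After quantile normalization, which gives both arrays the same distribution of signals and whose values differed from the authors' deposited log2 values by at most 1.11e-05, the differences were -3.67 for miR-96-5p, -2.16 for miR-182-5p, -1.99 for miR-183-5p and -1.87 for miR-183-3p. In normalized signal this is 12.7-fold lower for miR-96-5p and 3.65-fold to 4.48-fold lower for the others. The normalization added 1.57 to 1.85 to each log2 difference of the cluster. With RNA from bulk exosome preparations, fewer vesicles that hold a miRNA and less of that miRNA per vesicle cannot be told apart. The labels give 0.5 µg of RNA for each sample, so the signals are per amount of RNA and not per vesicle.

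**Figure D2:**
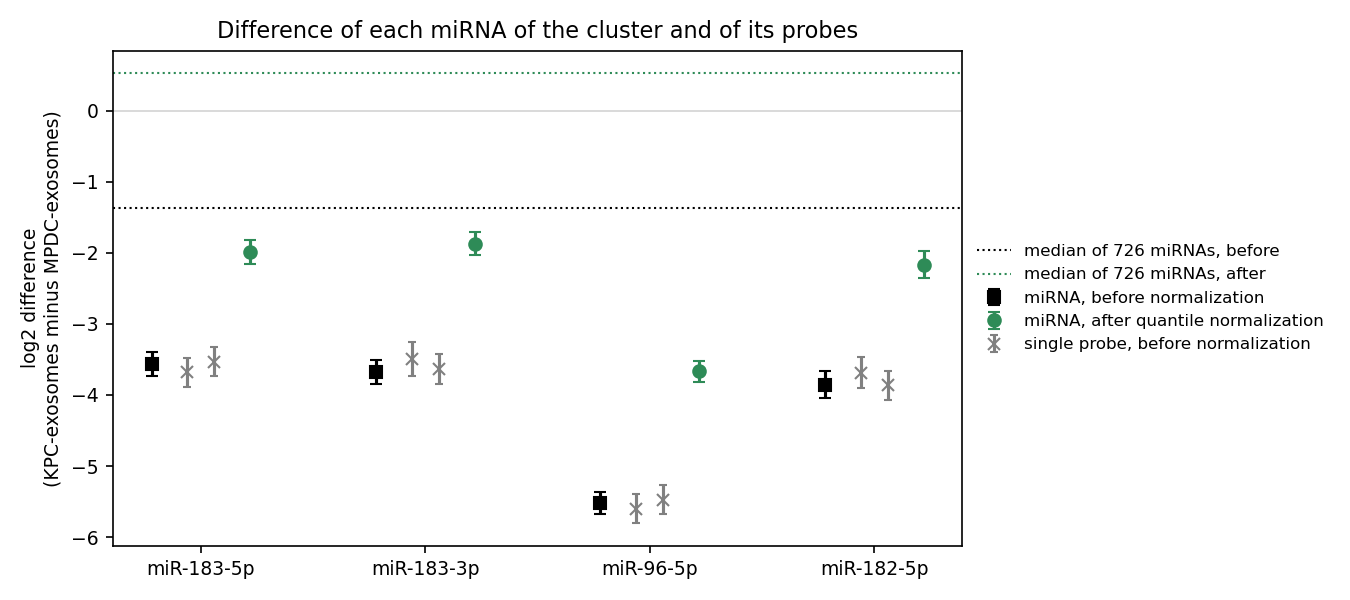
log2 difference (KPC-exosomes minus MPDC-exosomes) of each miRNA of the cluster before normalization (black squares) and after quantile normalization (green circles), and of its single probes before normalization (grey crosses). Bars are scanner errors, and dotted lines are the medians of the 726 miRNAs detected on both arrays, -1.37 before and 0.53 after normalization. All 4 miRNAs lie below the median line of their own colour, and miR-96-5p lies lowest.

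All 4 members were at least 2-fold lower in KPC-exosomes after normalization, the filter that the study used. Among all miRNAs detected on at least 1 array 42.7% were called lower in this way, and among the 726 detected on both arrays 21.3%. At least 4-fold lower were 2 of the 4, miR-96-5p and miR-182-5p, against 10.5% of the 726. Without normalization all 4 members were at least 2-fold lower, but so were 58.8% of the 726, and the count of calls without normalization was therefore common among miRNAs. From the lowest upwards, miR-96-5p ranked 19 of 726 both before and after normalization. The ranks of miR-182-5p, miR-183-5p and miR-183-3p after normalization were 69, 77 and 87, and before it 78, 96 and 89. After normalization 9.37% to 11.8% of the 726 miRNAs were lower than these 3, and 2.48% were lower than miR-96-5p. The ranks and these shares leave out miRNAs detected on 1 array only, some of which differed by more than miR-96-5p. For example, after normalization miR-148a-3p was at least 155-fold lower in KPC-exosomes, and miR-217-5p at least 282-fold higher.

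The median log2 difference of the 4 members was -2.08 after normalization, against 0.53 for the 726 miRNAs, a gap of -2.61. Before normalization the median of the members was -3.76, against -1.37, a gap of -2.39. The median of the members therefore lay below that of the 726 miRNAs on either scale. The scanner error of the median of the members was 0.13. Both gaps come from the same signals, so that error does not measure the difference between them.

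**Figure D3:**
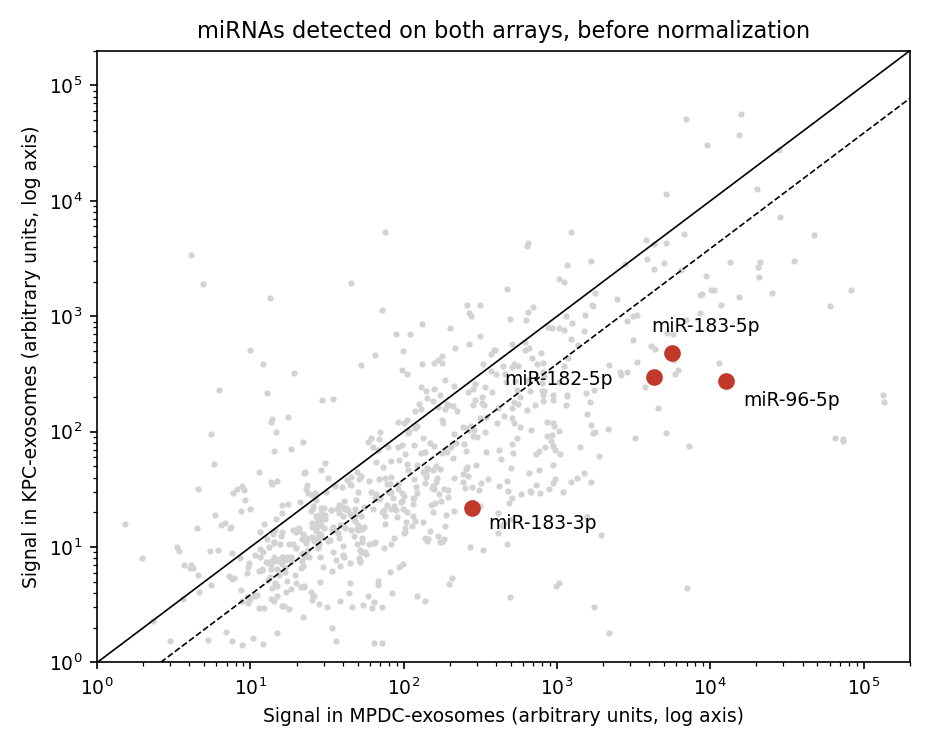
Signal of each miRNA detected on both arrays before normalization, in MPDC-exosomes (x axis) and KPC-exosomes (y axis), in arbitrary units on log axes. Grey points are the other miRNAs and red points the cluster, the solid line marks equal signals and the dashed line the median difference of -1.37 (log2). All 4 red points lie under the dashed line, with miR-96-5p farthest from it.

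The members did not differ by the same amount. The log2 difference of miR-96-5p minus the median of the other 3 was -1.68 after normalization and -1.85 before it. Against each of the 3 alone, miR-96-5p was lower by 6.15 to 8.59 scanner errors. The other 3 lay within 0.29 of each other on both scales, no more than 1.16 scanner errors. Both probes of miR-96-5p gave this separately, with log2 differences before normalization of -5.60 ± 0.20 (21 bases) and -5.48 ± 0.20 (22 bases), while the 6 other probes detected on both arrays ranged from -3.86 to -3.50. The probes of miR-96-5p thus lay apart from those of the other members. Whether this gap exceeds the variation between exosome preparations cannot be seen with 1 array per condition. Over the 8 probes detected on both arrays, the total signal was 7.59 to 10.0 times its scanner error. For bright probes that error was thus near a fixed share of the signal. The counts of scanner errors are therefore not multiples of a measured spread. Standard errors over the spots of these probes were smaller, 0.017 to 0.058 (log2).

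For miR-183-3p, 2 of 4 probes were detected in KPC-exosomes and all 4 in MPDC-exosomes, so its sums cover unlike sets of probes. Over the 2 probes detected on both arrays its log2 difference before normalization was -3.60, close to the -3.68 of the full sums and to the -3.56 of the 5p arm of the same hairpin.

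The opposite arms of the other hairpins gave no detected signal. miR-182-3p and miR-96-3p are on the array with 2 probes each and were detected on neither array. The probes of miR-182-3p summed to -0.30 ± 1.31 in KPC-exosomes and -0.36 ± 1.41 in MPDC-exosomes. The probes of miR-96-3p summed to -0.71 ± 1.31 in KPC-exosomes and 5.21 ± 1.46 in MPDC-exosomes, where neither probe (2.37 ± 1.02 and 2.84 ± 1.04) passed 3 errors by itself. No fold change is given for these arms.

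The nearest other miRNA genes on chromosome 6 gave mixed values. The scanner files place 2 other miRNAs within 1 Mb of it, the arms of miR-29a, about 897 kb away on mm9. miR-29a-3p, a miRNA known to target collagen mRNAs, had signals of 2832 ± 239 (KPC) and 2755 ± 234 (MPDC), a log2 difference of 0.04 ± 0.17 before normalization and 1.72 after it. miR-29a-5p was detected in KPC-exosomes only, at 1.44 ± 0.46. RefSeq positions, looked up after the values of the cluster were known, add the arms of miR-29b-1 and miR-335 within the same distance. miR-29b-3p, which also has a gene copy elsewhere, had signals of 794 ± 73.4 (KPC) and 1031 ± 95.2 (MPDC), with log2 differences of -0.38 without and 1.08 with normalization. miR-29b-1-5p was dim on both arrays, at 5.95 ± 0.74 (KPC) and 9.51 ± 1.07 (MPDC), with log2 differences of -0.68 without and 3.55 with normalization. Its sums cover 1 of 4 probes in KPC-exosomes and 3 of 4 in MPDC-exosomes. The normalization added 4.22 to its difference, against 1.57 to 1.85 for the cluster, and so set its sign. The miR-29 arms that were detected on both arrays thus showed no 2-fold lower signal on either scale. miR-335-5p, about 575 kb away and made from an intron of Mest, was not detected in KPC-exosomes and had a signal of 147 ± 13.2 in MPDC-exosomes, which makes it at least 16.6-fold lower in KPC-exosomes after normalization. miR-335-3p was likewise detected in MPDC-exosomes only, at 29.4 ± 1.82. The bound sets the level in MPDC-exosomes against the higher of 2 values for KPC-exosomes, the dimmest detected miRNA there and the sum of the probes of miR-335-5p.

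The miRNAs whose pair of normalized signals lay nearest to each member, by Euclidean distance on the log2 scale over the 2 arrays, came from several families. Nearest to miR-183-5p was miR-19a-3p (distance 0.13), with a normalized difference of -2.14. Nearest to miR-183-3p were miR-6997-5p (0.10) and miR-200b-3p (0.19), the latter with a normalized difference of -1.72. Nearest to miR-182-5p was miR-29c-3p (0.26), with a normalized difference of -2.24. Nearest to miR-96-5p was miR-361-5p (0.48), with a normalized difference of -3.10, and the next, miR-7005-5p, lay at 0.89. The distance was set by the brightness of unlike probes as well as by the difference between the arrays, so a small distance describes the signals and not the amounts of the miRNAs.

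The miR-200 family with miR-203 and miR-205, known markers of epithelial cells, is set beside the cluster because the control line is labelled as epithelial. The miR-200 family is known to repress Zeb1 and Zeb2, transcription factors that lower E-cadherin. Of the 1031 miRNAs detected in MPDC-exosomes, 726 were also detected in KPC-exosomes. All 7 epithelial markers were detected in MPDC-exosomes and 5 in KPC-exosomes. Those 5 were lower in KPC-exosomes before normalization, by log2 differences from -7.76 to -2.28 (median -3.50, against -3.76 for the cluster). miR-200c-3p had a signal of 4.58 ± 1.04 in KPC-exosomes and 991 ± 83.4 in MPDC-exosomes, and miR-200b-3p one of 24.4 ± 2.52 and 281 ± 24.8. After normalization 3 of the 5 were at least 2-fold lower, against 21.3% of the 726 miRNAs detected on both arrays. These were miR-200c-3p by -5.99, miR-200b-3p by -1.72 and miR-200a-3p by -1.47, while miR-429-3p differed by -0.66 and miR-141-3p by -0.39. miR-203-3p (18.1 ± 1.98) and miR-205-5p (94.0 ± 7.10) were detected in MPDC-exosomes only. The list holds only 3p arms of the miR-200 family, and its 5p arms did not all go the same way. miR-200a-5p was higher in KPC-exosomes (signal 99.8 against 14.8), by log2 differences of 2.76 before and 7.23 after normalization. To this difference the normalization added more than the 1.57 to 1.85 that it added for the cluster. miR-200b-5p differed by -1.03 before and 0.73 after it. The cluster stayed within a range of 1.80 after normalization. The listed epithelial markers spread more widely. The lowest of them, miR-200c-3p, had 1 of 2 probes detected in KPC-exosomes. Without it the others on the list detected on both arrays ran from -1.72 to -0.39, a narrower range than that of the whole cluster. Without its own lowest member, miR-96-5p, the cluster ran from -2.16 to -1.87, which is narrower still. On the epithelial list miR-200a-3p also had 1 of 2 probes detected in KPC-exosomes. With 1 array per condition no test of a difference between the lists could be made.

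Markers of other cell types also moved with the comparison, and their part in the result was not tested. Of all 1881 miRNAs, 1031 were detected in MPDC-exosomes and 772 in KPC-exosomes. Of the pluripotent list, miRNAs known from embryonic stem cells, 9 of 9 were detected in MPDC-exosomes and 5 in KPC-exosomes, with summed signals of 483973 and 645, and miR-302a-3p, miR-302b-3p, miR-302d-3p and miR-367-3p were undetected in KPC-exosomes. The 5 measured on both arrays had normalized differences from -8.09 to -7.51, well beyond those of the cluster. Of the neural and sensory list, 3 of 3 were detected in MPDC-exosomes and 2 in KPC-exosomes, with summed signals of 7515 and 19.5. miR-124-3p and miR-9-3p had normalized differences of -8.75 and -3.01, and miR-9-5p was undetected in KPC-exosomes. Of the mesenchymal list, 5 of 5 were detected in MPDC-exosomes (summed signal 226) and 0 in KPC-exosomes. Of the haematopoietic list 4 of 5 were detected on each array, with summed signals of 501 in MPDC-exosomes and 704 in KPC-exosomes. In that list miR-155-5p and miR-142a-3p were higher in KPC-exosomes, by log2 differences of 1.35 and 2.69 before normalization, and miR-142a-5p was detected in KPC-exosomes only (28.4 ± 2.41). The other members of that list went the opposite way, with a log2 difference of -2.52 before and -0.66 after normalization for miR-223-3p, while miR-150-5p was detected in MPDC-exosomes only (109 ± 8.86). Of 5 pancreas markers, miR-375-3p, miR-216a-5p and miR-216b-5p were detected on neither array, miR-148a-3p in MPDC-exosomes only (1190 ± 88.5) and miR-217-5p in KPC-exosomes only (60.9 ± 3.42). The pancreas markers thus do not distinguish the arrays in a single direction.

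**Figure D4:**
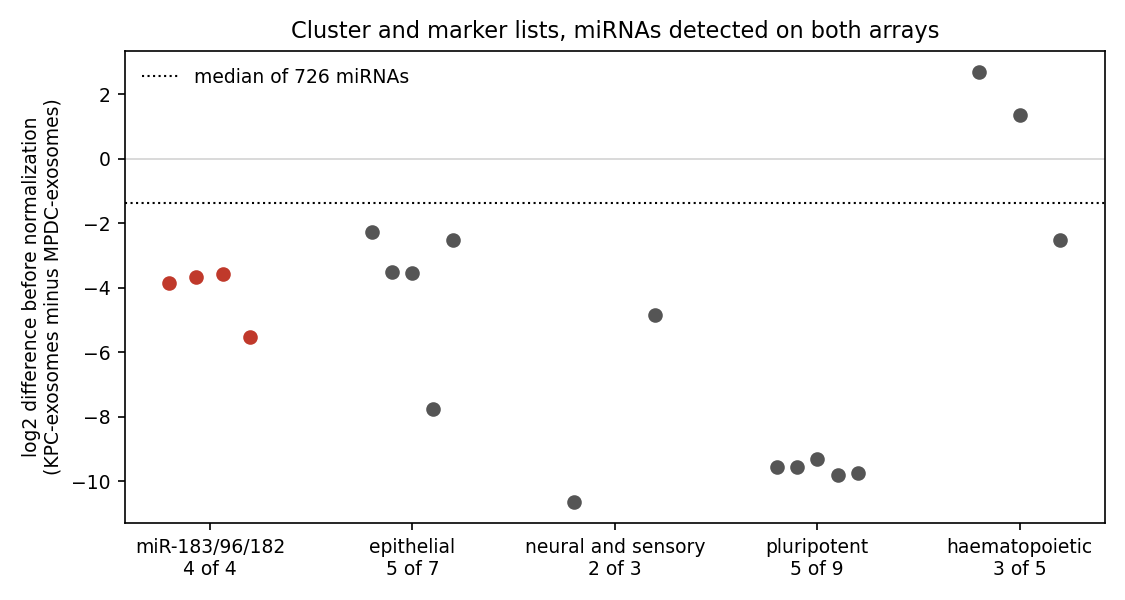
log2 difference before normalization (KPC-exosomes minus MPDC-exosomes) of single miRNAs, for the cluster (red) and for 4 marker lists (grey), where both arrays detected them, with the number detected on both arrays of the number on the array. The dotted line is the median of the 726 miRNAs, -1.37. The cluster lies between -5.52 and -3.56, within the range of the epithelial list and above the pluripotent list.

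Other ways of processing left the direction of all 3 miRNAs of the 5p arm as it was. Over the main setting and 15 alternatives the log2 difference ranged from -5.55 to -3.58 for miR-96-5p, from -3.88 to -1.73 for miR-182-5p and from -3.59 to -1.74 for miR-183-5p. miR-183-3p kept its direction in all but 1 of them, the totals that Feature Extraction wrote, where its normalized difference was 1.85. With normexp background correction it was -0.85, short of 2-fold. In each setting miR-96-5p was the lowest of the 4, by 1.54 to 1.85 relative to the median of the other 3. The scalings shift all miRNAs of an array alike, so they could not change this gap from its value without normalization. With the deposited values, a floor of 1, all probes or only probes well above background the gap stayed at the main value, -1.68. Those settings were therefore no separate checks of the gap.

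**Figure D5:**
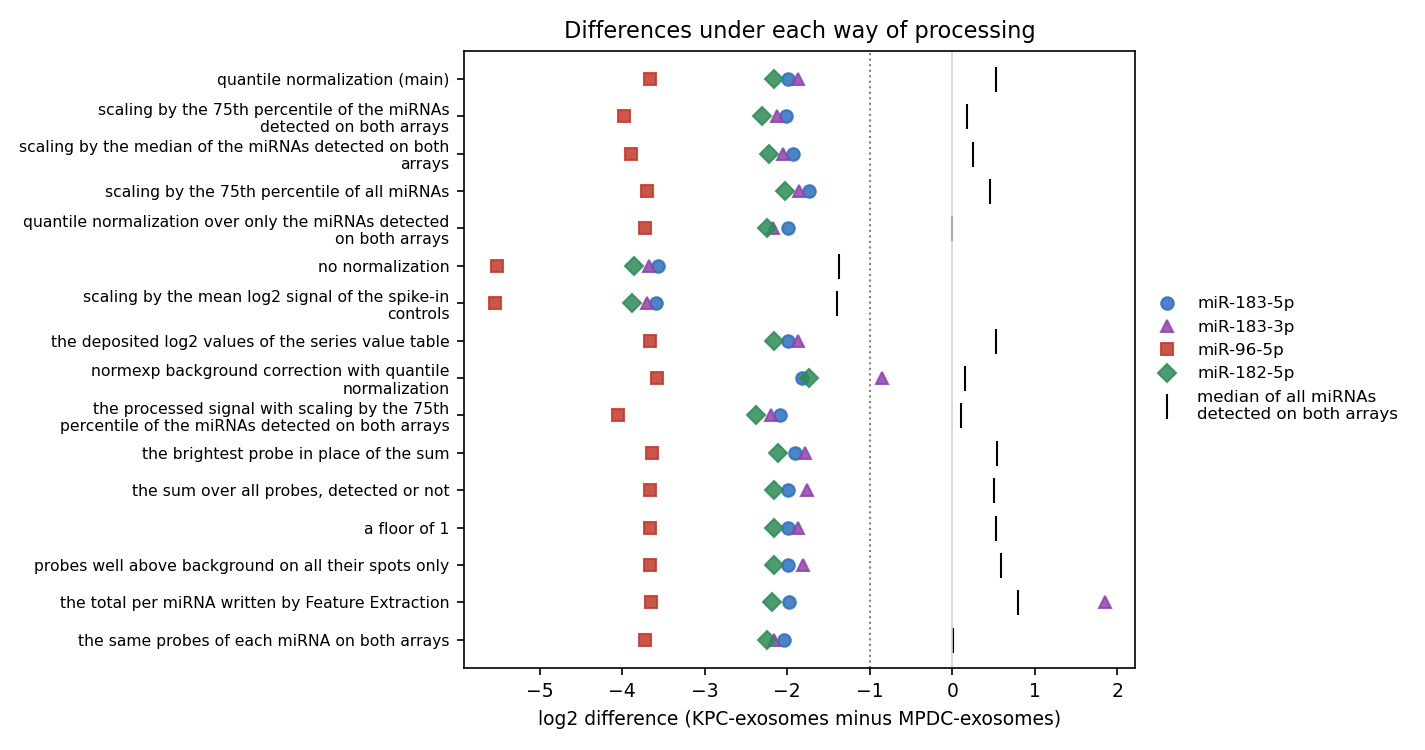
log2 difference (KPC-exosomes minus MPDC-exosomes) of the 4 miRNAs of the cluster under the main setting and 15 alternatives, 1 per line, with a black bar for the median over the miRNAs that both arrays detected. The dotted line marks a 2-fold lower signal. Symbols of miR-96-5p stay lowest on every line, and that of miR-183-3p lies above 0 only with the total written by Feature Extraction.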

How the data were processed

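miRNAs of KPC-exosomes and MPDC-exosomes were measured on 1 single-colour (Cy3) Agilent mouse miRNA array each, on a shared slide. The authors deposited Feature Extraction output (version 10.7.1.1 per the file headers, 9.1 per the submitters' processing notes), whose signals and errors are background-subtracted intensities without normalization between arrays, and whose spot flags were kept as given. They also deposited log2 values normalized in GeneSpring by a method the paper does not name, with medians of -2.61 (KPC-exosomes) and -0.42 (MPDC-exosomes). Probe positions in the files are on mm9.

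Total signals of probes above 3 errors were summed per miRNA, undetected miRNAs were set to 0.1, log2 was taken, and the 1881 miRNAs with 21 control features were quantile normalized, which removes any difference in total miRNA. A call needed detection on at least 1 array and a 2-fold difference. Scanner errors combine both arrays and cover the measurement only. No test was possible with 1 array per group. KPC-exosomes gave 772 detected miRNAs and MPDC-exosomes 1031.

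The alternatives were scaling by the 75th percentile or median of miRNAs detected on both arrays, by the 75th percentile of all, or by spike-in controls, quantiles over miRNAs detected on both, no normalization, the deposited log2 values, normexp (offset 50), processed signals, the brightest probe, all probes, a floor of 1, probes well above background only, a 4-fold threshold and a threshold of 2 errors. The totals written by Feature Extraction and the use of the same probes on both arrays were added after the data were seen. Members, lists and alternatives were chosen with earlier results of these data known. Named miRNAs were the members, the other arms of their hairpins, miRNAs with a member's seed and miRNAs within 1 Mb. Also named were the 2 nearest in signal to each member, the marker lists, and miR-200a-5p and miR-200b-5p. The normalization was tested on simulated data. Tools were limma 3.58.1 in R 4.3.3, for normexp, and numpy 2.4.6, matplotlib 3.10.9 and pandas 2.3.3 in Python 3.11.15.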

Additional observations from a re-analysis of the deposited data

Results flagged for a closer look

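Feature Extraction also wrote a total for each miRNA, a column not used for the values above. It gave miR-183-3p a signal of 320 in KPC-exosomes, above the 279 in MPDC-exosomes, whereas its detected probes summed to 21.8 in KPC-exosomes. The excess of 298 equals the signal of miR-182-5p on that array (298). With the written totals the log2 difference of miR-183-3p would be 0.20 before normalization in place of -3.68. For the other 3 members the written total and the sum of probes differed by less than 0.1% on both arrays. Over all 1881 miRNAs they differed by more than 0.1% for 143 in KPC-exosomes and for a larger number in MPDC-exosomes. The cause was not tested.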

How the results depend on the processing

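No paired analysis was possible because each group holds 1 array, and no replicate could be left out. The median log2 difference of the 4 members, -2.08, became -2.22 scaled to the 75th percentile over miRNAs that both arrays detected, -1.94 scaled to that over all miRNAs, -2.21 with quantiles over miRNAs detected on both arrays, -3.76 without normalization, -3.79 with scaling by spike-in controls, -1.78 with normexp and -2.29 with processed signals. Relative to the median over the miRNAs that both arrays detected it was -2.61 in the main setting and -2.39 without normalization. The 4 scalings shift all miRNAs of an array alike, so they gave -2.39 again by construction. The same holds for the gap between miR-96-5p and the other members. Relative to that median, the members were at -2.39 with processed signals, -2.21 with quantiles over miRNAs detected on both arrays and -1.93 with normexp. They were at -2.88 with the totals written by Feature Extraction and -2.21 with the same probes on both arrays. All 4 members were called lower under the main setting, 3 with normexp or with the written totals, and 2 at a 4-fold threshold. miR-183-3p reversed with the written totals, to 1.85. The other alternatives moved the medians by less than their scanner error of 0.13. All 15 moved the gap between miR-96-5p and the other members by less than that gap's own scanner error, 0.23. The cause of these shifts was not tested. The value of miR-183-3p in KPC-exosomes rests on 2 of its 4 probes, the others being undetected there.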
